A study of Mus musculus with 14 samples.

Results

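Clustered histone genes were followed across RNA-seq libraries from mouse hepatocellular carcinoma (HCC) cells that lacked ACLY, ACSS2, both enzymes or neither. The 69 genes were chosen by name alone, as every symbol beginning Hist1h, Hist2h, Hist3h or Hist4h among the 24972 symbols in the deposited table. They comprised 6 H1, 19 H2A, 19 H2B, 12 H3 and 13 H4 genes, and 18 of them had a mean of at least 10 normalized counts over the 14 libraries and were tested. ACLY makes cytosolic acetyl-CoA from citrate and ACSS2 makes it from acetate, and acetyl-CoA is the acetyl donor for histone acetylation.

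The study describes its knockout lines as isogenic, made from HCC cells of diethylnitrosamine-induced tumors in mice with floxed Acly alleles. It names its WT HCC cells D42 in another experiment, and its RNA-seq methods do not name the line. The WT line (4 libraries) kept ACLY and ACSS2, and the ACLY KO line (4 libraries) was a single-cell clone obtained with adenoviral Cre. The ACSS2 KO line (3 libraries) and the ACLY/ACSS2 double knockout line DKO1 (3 libraries) were made from WT and ACLY KO cells. A lentiviral CRISPR guide against the first exon of Acss2 was used, and both lines were grown from single cells. WT and ACLY KO cells received the vector with no guide and were used as bulk populations after it. Each genotype was thus 1 line, and a property of that line or clone cannot be told apart from its genotype. Cells were kept for 24 hours in DMEM with 10% calf serum before RNA was taken. The study calls the libraries biological replicates, but the labels do not say whether those of a genotype were separate cultures, and the p-values measure only the spread between these libraries.

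Most clustered histone genes are transcribed in S phase, when new DNA has to be packed into nucleosomes. H2A, H2B, H3 and H4 form the protein core around which DNA winds, and H1 binds the linker DNA between cores. The mRNAs of these genes usually end in a short stem-loop, held by the stem-loop binding protein SLBP, in place of a poly(A) tail. Some of the genes can also give longer, polyadenylated transcripts, which are known from cells that have left the cycle or differentiate. The libraries were prepared from poly(A)-selected RNA, so the values describe mainly the polyadenylated forms and not the whole histone mRNA pool.

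The genes lay close together, as their name says. In the GRCm38 annotation, 54 of the 55 Hist1 genes fell within 2.22 Mb of chromosome 13 (chr13:21715763-23934851), and Hist1h2al lay apart on the same chromosome (chr13:51202727-51203065). The 10 Hist2 genes occupied 0.0503 Mb of chromosome 3 (chr3:96219865-96270132). The 3 Hist3 genes were on chromosome 11 and Hist4h4 was on chromosome 6.

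The 3' ends of the annotated transcripts differed between the histone genes with the highest values. The stem-loop is shown first for genes of several types, with its 16 bases in capitals and 5 bases on either side, in DNA letters from the GENCODE transcripts of GRCm38.

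Hist1h1c: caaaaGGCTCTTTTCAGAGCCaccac
Hist1h1d: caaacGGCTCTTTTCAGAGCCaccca
Hist2h2aa1: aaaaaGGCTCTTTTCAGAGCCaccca
Hist3h2a: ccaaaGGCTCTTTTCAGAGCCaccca
Hist1h4i: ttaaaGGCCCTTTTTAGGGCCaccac
Hist1h4h: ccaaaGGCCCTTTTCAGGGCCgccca

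The H1, H2A and H2B stem-loops that were compared, 5 with Hist1h2be, were identical over the 16 bases. Over all annotated genes the stem-loop consensus was found in 74 of 55341 (0.134%), and 46 of these 74 were among the 69 clustered histone genes. Of the 18 tested genes, 14 held it. Hist1h2bc, Hist2h2be, Hist1h2bq and Hist1h2br, all H2B genes, did not hold it in any annotated transcript.

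Several of the annotated transcripts ran on well past the stem-loop. In Hist1h1c the stem-loop began at base 705 of 1560, in Hist3h2a at base 488 of 2146, and in Hist1h1d at base 2526 of 7425. In Hist1h4i it began at base 382 of 727, whereas in Hist2h2aa1 it began at base 536 of 586 and in Hist1h2bj at base 425 of 463. The longest annotated transcripts of the 18 tested genes had a median of 1088 bases, against 520 bases for the 51 genes that were not tested. A poly(A) signal, AATAAA or ATTAAA, lay within the last 50 bases in 7 of the 18 and in 9 of the 51. The signals of 4 of these genes follow, with AATAAA in capitals.

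Hist2h2be: gttattattattAATAAAgttaccgattag
Hist1h1c: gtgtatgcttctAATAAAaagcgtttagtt
Hist3h2a: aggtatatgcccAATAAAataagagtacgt
Hist1h2br: agaagaatattaAATAAAtttgtttcttct

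Hist2h2be (chr3:96221119-96223738) was a single exon of 2620 bases with this signal 22 bases from its end. Hist1h2bc (chr13:23684199-23692908) had 1 annotated transcript of 1156 bases in 2 exons. Hist1h1c (chr13:23738808-23740367) held both elements, the stem-loop and, 26 bases from the end, the signal. These are features of annotated transcripts, and which 3' end each read came from was not analysed here.

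Promoters were available from RefSeq (GRCm38.p6, 250 bases before to 50 after the start) for 61 of the 69 genes. CCAAT, bound by the factor NF-Y, stood on either strand in 85.2% of them against 37.9% of all 27025 promoters. TATAAA stood in 57.4% against 14.2%, and the octamer ATTTGCAT, known from H2B promoters, in 21.3% against 1.75%. AAACACA, the H1 box of linker histone promoters, stood in 14.8% against 7.14%. The 250 bases before the start of Hist1h1c (chr13:23738557-23738806, plus strand) hold an AAACACA and a CCAAT, in capitals, and are shown because this H1 gene was among the 3 that made up most of the histone signal.

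Hist1h1c: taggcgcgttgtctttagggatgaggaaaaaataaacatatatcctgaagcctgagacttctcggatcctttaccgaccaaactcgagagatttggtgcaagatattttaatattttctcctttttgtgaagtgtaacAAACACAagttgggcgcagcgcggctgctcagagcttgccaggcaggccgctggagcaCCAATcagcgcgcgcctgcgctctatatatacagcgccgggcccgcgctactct

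A match of letters is a description and does not show that a factor was bound there.

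The normalized counts of a library summed to between 23565707 and 26946164. Acly stood at 5461 to 6435 in WT and 5542 to 5762 in ACSS2 KO, against 965 to 1084 in ACLY KO and 931 to 956 in DKO1. Acss2 stood at 224 to 252 in WT and 127 to 135 in ACSS2 KO, but at 660 to 787 in ACLY KO and 455 to 578 in DKO1, so in DKO1 it was below ACLY KO and above WT. Keratins Krt8 and Krt18 were high in every library, at 13938 and 11845 or more, while albumin (Alb) did not pass 137 and the T cell marker Cd3e did not pass 1.48. Apob, Afp, Hnf4a, Apoa2, Ttr and Apoa1 did not pass 387 in any library. Marker sums moved with genotype, those of liver epithelium included. The 9 hepatocyte and liver epithelium markers, mostly Krt8 and Krt18, summed to 48145 to 65084 in WT and 34798 to 37964 in ACLY KO. Their sum was 41063 to 44034 in ACSS2 KO and 26361 to 45332 in DKO1. The sum of 4 fibroblast and stellate cell markers, mostly Col1a1, was 405 to 496 in WT and 2385 to 2751 in ACLY KO libraries, with 563 to 585 for ACSS2 KO and 573 to 682 for DKO1. The 5 leukocyte markers, mostly Cd68, summed to 39.8 to 76.2, 60.4 to 99.2, 26.3 to 51.8 and 82.7 to 130, and the 3 endothelial markers to 17.5 to 27.1, 77.1 to 90.6, 10.5 to 18.3 and 40.2 to 51.2, in the same order. Their part in the histone values was not tested. In 4 libraries (WT replicate 2, ACLY KO replicate 4, ACSS2 KO replicate 1 and DKO1 replicate 4) genes with short transcripts were higher than in the other libraries of the same genotype. Across 12577 genes, Spearman's rho of this deviation with transcript length was -0.58, -0.57, -0.52 and -0.67 in these 4, and DKO1 sums and several fold changes are given with and without replicate 4.

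Summed over the 69 genes, histone transcripts stood at 1384 ± 106 normalized counts in WT (SD, n = 4) and 1312 ± 75.3 in ACSS2 KO (n = 3). The sum was 2953 ± 261 in ACLY KO (n = 4) and 7725 ± 3076 in DKO1 (n = 3), or 2.13 and 5.58 times the WT mean, and without DKO1 replicate 4 the DKO1 mean was 5982, or 4.32 times. The 3 DKO1 libraries stood at 5389, 6576 and 11210, all above the highest ACLY KO library at 3164, which in turn was above the highest WT library at 1522. The sum over the 18 tested genes in DKO1 was 7487 with and 5802 without replicate 4. When the trend with transcript length was removed from each library, the 3 DKO1 libraries stood at 5419, 6204 and 6747 over the 18 genes.

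**Figure D1:**
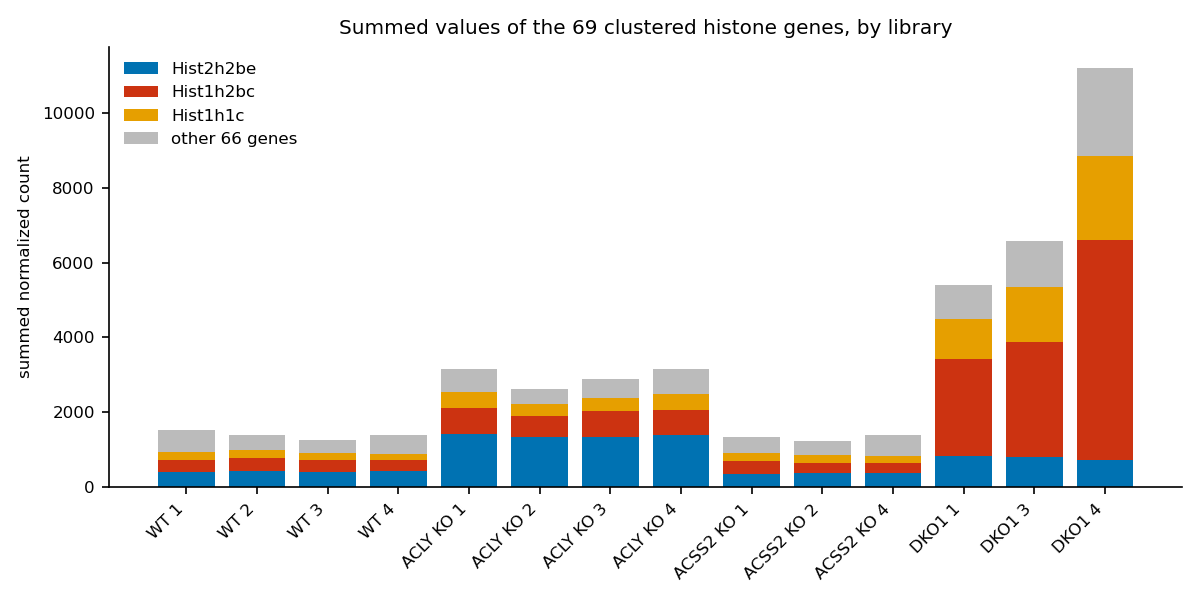
Summed normalized counts of the 69 clustered histone genes in each of the 14 libraries (x axis), stacked by gene. Hist2h2be is the largest part of each ACLY KO bar, and Hist1h2bc the largest part of each DKO1 bar.

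Hist2h2be, Hist1h2bc and Hist1h1c made up most of this signal, with 67.5% of the WT sum, 65.2% of the ACSS2 KO sum, 81.5% of the ACLY KO sum and 80.7% of the DKO1 sum. Their shares changed places between genotypes. Hist2h2be held 29.6% of the WT sum, 46.1% in ACLY KO and 10.1% in DKO1. Hist1h2bc held 23.4% of the WT sum, 22.4% in ACLY KO and 49.7% in DKO1. By cluster, the Hist1 genes summed to 1.62 times WT in ACLY KO and 7.29 times WT in DKO1, whereas the Hist2 genes summed to 3.21 times WT in ACLY KO and 2.49 times WT in DKO1. Without DKO1 replicate 4 the DKO1 values were 5.49 times WT for Hist1 and 2.24 times WT for Hist2. By type, the H2B sum stood at 806 ± 15.2 in WT, 2133 ± 123 in ACLY KO and 4928 ± 1723 in DKO1. The H1 sum stood at 230 ± 28.8, 415 ± 44.1 and 1710 ± 593 in the same order. Without DKO1 replicate 4 the DKO1 means of these sums were 3942 for H2B and 1388 for H1. The H2A sum was 241 ± 60.9 in WT and 212 ± 59.0 in ACLY KO, so these overlapped. In DKO1 it stood at 233, 419 and 1041, and replicate 1 lay inside the WT range of 170 to 312. The H3 sum was 26.2 ± 4.7 in WT, 44.3 ± 4.2 in ACLY KO and 126 ± 51.6 in DKO1, and the H4 sum was 81.5 ± 30.6, 148 ± 37.1 and 396 ± 296, with DKO1 means of 98.3 and 228 without replicate 4.

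Per kilobase of the longest annotated transcript, Hist1h2bc was above Hist2h2be and Hist1h1c in WT, with mean values of 280, 157 and 128 normalized counts per kb. In ACLY KO the same means were 572, 519 and 247 per kb, and in DKO1 they were 3324, 299 and 1029 per kb. The H2A gene Hist1h2ao, one of a pair of near-identical copies, was above all 3 in WT, at 322 per kb, and stood at 190.1 per kb in DKO1.

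The first comparison asked how histone transcripts differed once ACLY was lost. In ACLY KO cells 7 of the 18 tested genes were higher than in WT and 1 was lower, with adjusted p under 0.05 in limma across 12711 genes, where 48.5% of all genes were called. The share called among the histone genes, 44.4%, was near this background. The median log2 fold change of the 18 was 0.81, against -0.0067 over all genes, and 23.8% of all genes were called higher. All 3 tested Hist2 genes were among those that rose, against 4 of the 14 Hist1 genes.

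Hist2h2be, which encodes an H2B protein, stood at 403 to 419 in the 4 WT libraries and at 1322 to 1410 in the 4 ACLY KO libraries. The ranges were far apart and narrow, and the log2 fold change was 1.73 ± 0.06 (SE, adjusted p = 2.6e-10). Hist1h2bc, also an H2B gene, stood at 321, 345, 323 and 307 in WT and at 707, 568, 688 and 682 in ACLY KO. It rose by a log2 fold change of 1.02 ± 0.20 (adjusted p = 0.00071), with every ACLY KO library above every WT library. Hist1h1c, the gene of the linker histone H1.2, stood at 172 to 226 in WT and 332 to 424 in ACLY KO (log2 fold change 0.94 ± 0.18, adjusted p = 0.00066). Among the lower genes, Hist2h2aa1 (H2A) rose from 13.8 to 27.4 in WT to 32.2 to 75.5 in ACLY KO (log2 fold change 1.36, adjusted p = 0.019), a call that was lost without WT replicate 4 and without ACLY KO replicate 4. Hist1h2bg, Hist1h4i and Hist2h3c2 had log2 fold changes of 2.43, 1.10 and 1.72 and adjusted p of 0.011, 0.043 and 0.045, and the calls of Hist1h4i and Hist2h3c2 were lost in 13 of 26 and 14 of 25 alternative settings.

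Hist1h2bj moved the other way. This H2B gene stood at 22.2, 10.7, 23.3 and 19.6 in WT and at 12.2, 8.72, 5.82 and 11.8 in ACLY KO. It fell by 0.90 on the log2 scale (SE 0.27, adjusted p = 0.015), although WT replicate 2 lay inside the ACLY KO range. Hist1h2be, at 6.69 to 12.9 in WT and 15.5 to 58.1 in ACLY KO, did not pass the test (adjusted p = 0.097), although every ACLY KO library was above every WT library.

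**Figure D2:**
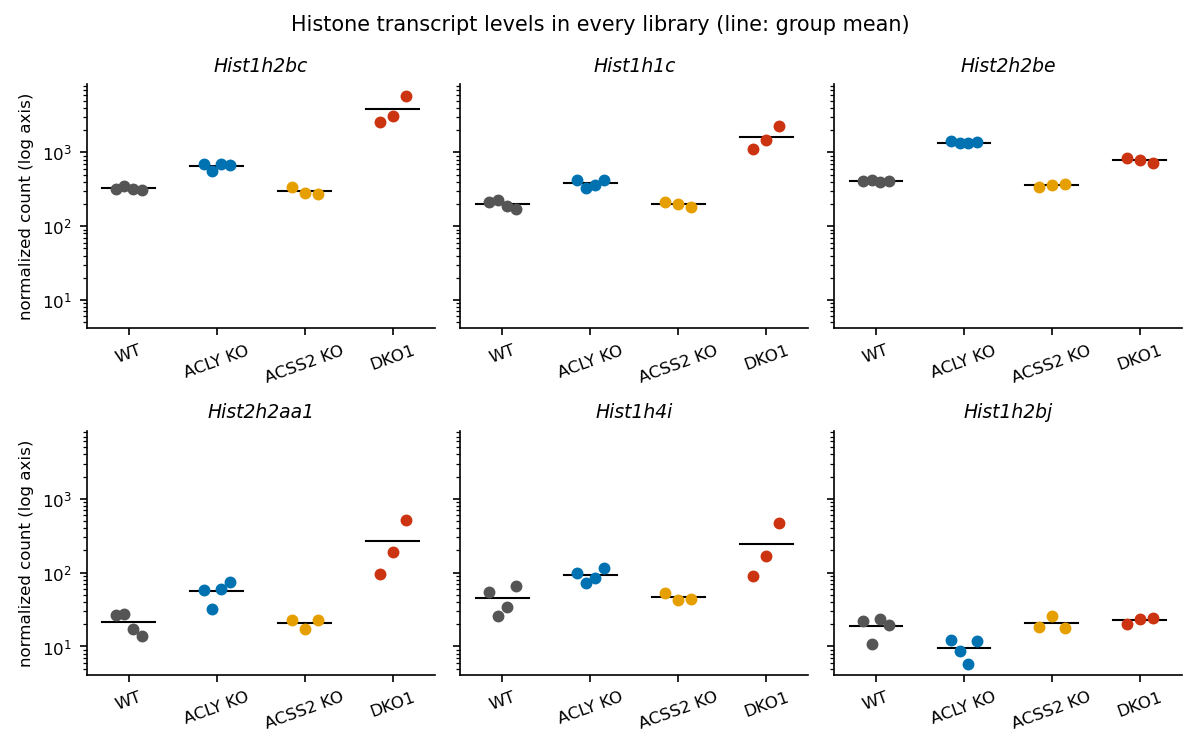
Normalized counts of 6 histone genes in every library (points, log axis) by genotype, with the group mean as a line. Hist2h2be is highest in ACLY KO, Hist1h2bc, Hist1h1c, Hist2h2aa1 and Hist1h4i have their highest means in DKO1, and Hist1h2bj has its lowest mean in ACLY KO.

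Loss of ACSS2 alone was compared with WT in the same way. In ACSS2 KO cells 1 of the 18 genes was higher and none was lower by limma, where 26.0% of all genes were called and 15.1% were called higher, and 2 of the 18 (Hist1h2bg and Hist2h2be) had an unadjusted p under 0.05. The median log2 fold change of the 18 was 0.091. Hist1h2bc stood at 338, 279 and 272 in ACSS2 KO, around the WT values, with a log2 fold change of -0.14 ± 0.21 (adjusted p = 0.71). Hist1h1c stood at 214, 198 and 184, inside the WT range. Hist2h2be stood at 341, 363 and 376, each below the lowest WT library. Its log2 fold change of -0.19 ± 0.07 did not pass the test (adjusted p = 0.053). The 74 other genes within 2 Mb of the Hist2 cluster had a median of -0.21 here, with 4 higher and 19 lower. Of 627 other genes of chromosome 3, 51 were higher and 184 lower, with a median of -0.23. Of all genes, 10.99% were called lower. Whether Hist2h2be moved with its region was not tested. The 1 call was Hist1h2bg, at 12.3, 11.1 and 7.32 in ACSS2 KO and 2.62, 0, 0 and 8.10 in WT, and it was lost in 14 of 25 alternative settings.

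In DKO1 cells, which lack both enzymes, 13 of the 18 tested genes were higher than in WT and none was lower, where 56.0% of all genes were called, 27.9% higher and 28.1% lower. The median log2 fold change of the 18 was 2.21, against 0.0035 over all genes. The filter used the mean over all libraries, DKO1 included, so a gene low elsewhere could be tested because of its DKO1 values. Hist1h4h, Hist1h4m, Hist1h2bg and Hist1h2br, all near the limit, had their highest library in DKO1, at 90.8, 34.1, 46.1 and 125. Of these, Hist1h4h, Hist1h4m and Hist1h2bg are among the 13 genes called. Hist1h2bg also passed the stricter limit given further on. This use of DKO1 in the filter bears on every comparison with DKO1, for histone genes and all genes alike. With no filter, 20 of 63 histone genes were called higher than in WT, where 21.7% of all genes were. The 13 genes held all 5 histone types, with 3 of 3 H1, 2 of 4 H2A, 4 of 7 H2B, 1 of 1 H3 and 3 of 3 H4 genes. All 13 were the genes with an unadjusted p under 0.05, and when the trend with transcript length was removed Hist1h2ao was called lower. For each of the 13, every DKO1 library was above every WT library, but how many of all genes did so was not counted. The genes without a call, Hist1h2ao, Hist1h2ap, Hist1h2bj, Hist1h2bq and Hist1h2br, include both members of 2 pairs of near-identical copies, described further on.

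The H2B gene Hist1h2bc stood at 2572, 3072 and 5883 in DKO1, with a log2 fold change against WT of 3.47 ± 0.21 (adjusted p = 3e-08). The replicate at 5883 was replicate 4, and over all alternative settings the log2 fold change lay between 3.04 and 3.71. With the length trend removed, its 3 DKO1 values were 2662, 2964 and 3439. The H1 genes rose together. Hist1h1c stood at 1095, 1463 and 2257 in DKO1 (log2 fold change 2.94 ± 0.19, adjusted p = 5.8e-08). Hist1h1d, the gene of H1.3, stood at 51.9, 56.3 and 41.5 against 4.56 to 14.2 in WT (2.26 ± 0.32, adjusted p = 5e-05), and Hist1h1e, the gene of H1.4, stood at 37.6, 57.7 and 51.4 against 9.01 to 18.8 (1.94 ± 0.26, adjusted p = 3.3e-05). In these last 2 genes replicate 4 was not the highest library. The annotated span of Hist1h1e overlaps that of Hist1h2be by 496 bases on the same strand, so both genes' values are uncertain.

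The H2A and H3 genes of the Hist2 cluster were also among the largest changes. Hist2h2aa1 stood at 96.5, 193 and 524 in DKO1 (log2 fold change 3.32 ± 0.46, adjusted p = 4.8e-05, and 2.68 without replicate 4), and Hist2h3c2 at 39.1, 63.5 and 90.0 against 0 to 11.1 in WT (3.46 ± 0.71, adjusted p = 0.0011). The H4 gene Hist1h4i stood at 91.6, 166 and 466 against 25.8 to 66.9 in WT, with a log2 fold change of 2.15 ± 0.45 that was 1.52 without replicate 4. Hist1h4h, another H4 gene, stood at 13.5, 12.4 and 90.8 in DKO1, and its call against WT (adjusted p = 0.012) was lost without replicate 4. Hist3h2a (H2A), at 63.2, 63.1 and 128 against 25.7 to 39.3 in WT, also rose (log2 fold change 1.21, adjusted p = 0.0009, and 0.87 without replicate 4). The H2B genes Hist1h2be, at 107, 98.3 and 78.4, and Hist1h2bg, at 14.1, 46.1 and 25.5, had log2 fold changes of 3.07 and 3.47, with adjusted p of 0.0039 and 0.0016. The H4 gene Hist1h4m, at 27.0, 34.1 and 28.7 against 0 to 18.7 in WT, passed with an adjusted p of 0.04, a call that was lost in 11 of 25 alternative settings, among them the one without replicate 4. Hist2h2be was higher than in WT by a smaller step, at 836, 800 and 712 (log2 fold change 0.93 ± 0.07, adjusted p = 1.1e-07).

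**Figure D3:**
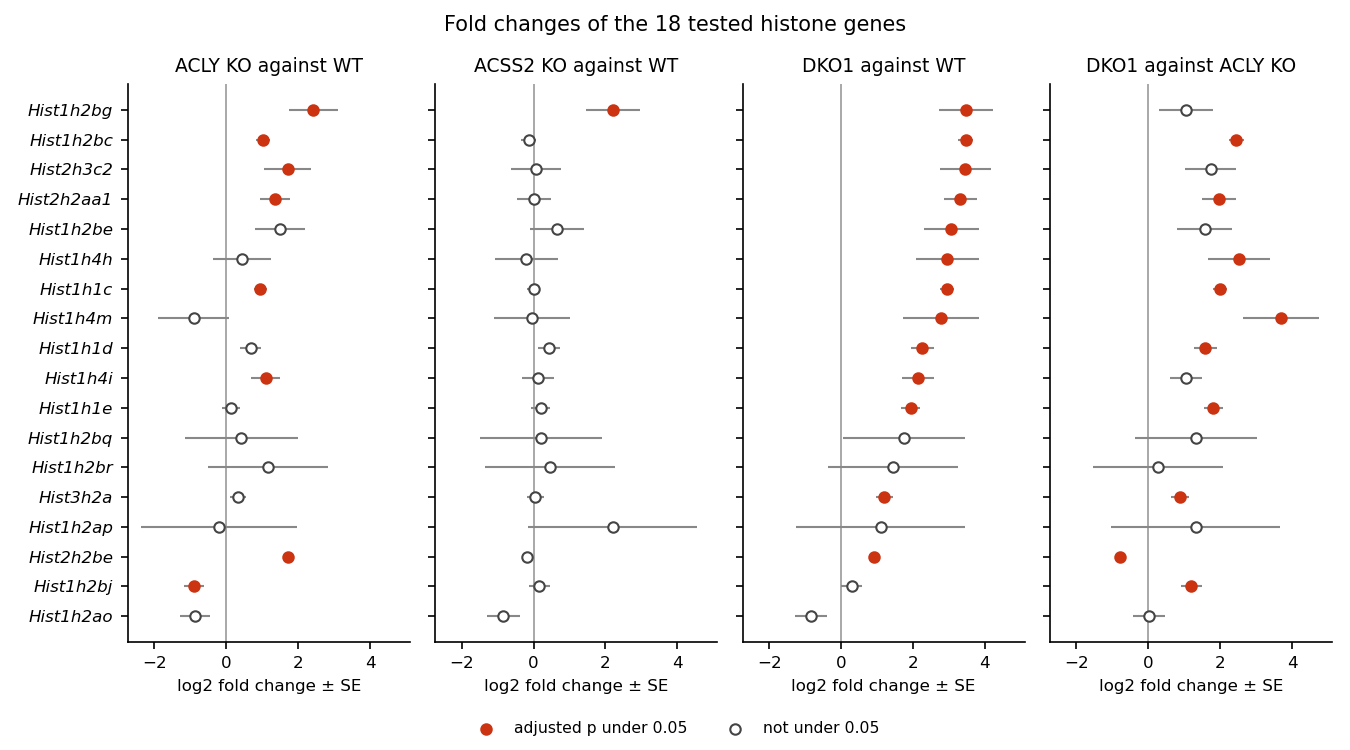
Log2 fold changes with standard errors (x axis) of the 18 tested histone genes (rows, ordered by the change in DKO1 against WT) in 4 comparisons. Filled points have an adjusted p under 0.05, which is 8, 1, 13 and 10 genes from left to right, and Hist2h2be is the only filled point below 0 in the panel of DKO1 against ACLY KO.

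DKO1 was next compared with ACLY KO, its parental genotype, to see what loss of ACSS2 added once ACLY was absent. Of the 18 genes 9 were higher and 1 was lower in DKO1. Of all genes 27.9% were called, with 14.3% of all genes higher and 13.6% lower. The median log2 fold change was 1.45. Hist1h2bc rose by a further log2 fold change of 2.45 ± 0.21 (adjusted p = 3.7e-06), Hist1h1c by 2.00 ± 0.19 (adjusted p = 9.5e-06), Hist1h1e by 1.81 ± 0.26 (adjusted p = 0.00023), Hist1h1d by 1.58 ± 0.32 (adjusted p = 0.0026) and Hist2h2aa1 by 1.97 ± 0.46 (adjusted p = 0.007). For each of these 5 genes no DKO1 library overlapped an ACLY KO library, but the share of all genes without overlap was not counted. Without DKO1 replicate 4 the change of Hist2h2aa1 was 1.32 and that of Hist1h2bc was 2.09. Hist3h2a, Hist1h4m, Hist1h4h and Hist1h2bj were also called higher, and the call of Hist1h4h (adjusted p = 0.048) was lost in 18 of 25 alternative settings. Without DKO1 replicate 4 the log2 fold change of Hist1h4h was 1.62 in place of 2.52, and that of Hist3h2a was 0.55 in place of 0.89. Hist1h2bj stood at 20.1, 23.4 and 24.4 in DKO1, back inside or just above its WT range, and its call against ACLY KO was lost when the length trend was removed.

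Hist2h2be was the exception, with 836, 800 and 712 in DKO1 below every ACLY KO library. It fell by 0.80 on the log2 scale (SE 0.07, adjusted p = 2.4e-06) while Hist1h2bc and Hist1h1c rose. Hist1h2be, Hist1h4i and Hist2h3c2 did not pass the test here, and their adjusted p were 0.15, 0.098 and 0.087 at log2 fold changes of 1.57, 1.06 and 1.74, and the value of Hist1h4i was 0.42 without DKO1 replicate 4.

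Whether loss of ACSS2 acted differently with and without ACLY was tested directly, as the change from ACLY KO to DKO1 minus the change from WT to ACSS2 KO. In this interaction 4 of the 18 genes were higher and 1 was lower, where 27.1% of all genes were called and 15.1% were called lower, and the share among the histone genes, 27.8%, was near this background. The median interaction of the 18 was 1.08 on the log2 scale, against -0.0085 over all genes. The 4 were Hist1h2bc (2.58 ± 0.30, adjusted p = 4e-05), Hist1h1c (2.00 ± 0.27, adjusted p = 0.00015), Hist1h1e (1.62 ± 0.37, adjusted p = 0.0055) and Hist2h2aa1 (1.95 ± 0.66, adjusted p = 0.043). The call of Hist2h2aa1 was lost in 13 of 25 alternative settings, and without DKO1 replicate 4 its value was 1.31 (adjusted p = 0.055). Hist2h2be had an interaction of -0.61 ± 0.09 (adjusted p = 0.00035). These comparisons share the ACLY KO and WT libraries and are not independent of those above.

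At a stricter limit, an absolute log2 fold change over 1.5 with an adjusted p under 0.01, fewer genes were called. The histone genes past it numbered 1 of 18 in ACLY KO against WT, where 8.80% of all genes passed, 0 in ACSS2 KO against WT, where 2.42% passed, and 9 in DKO1 against WT, where 9.84% passed. They numbered 5 in DKO1 against ACLY KO, where 2.06% of all genes passed, and 3 in the interaction, where 4.61% passed.

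Some clustered genes are nearly identical, and single-end reads of 75 bases cannot tell such copies apart. Of the 18 tested genes, 8 shared over 50% of their 75-base windows with another annotated gene, whereas Hist2h2be shared 0% and Hist1h1c 6.66%. In Hist1h2bc 27.1% of the windows were shared. Hist1h2bq and Hist1h2br share 96.1% of the windows of the shorter transcript, and in every library but ACLY KO replicate 4 the one or the other was listed at 0. Their sum was 9.75 ± 0.83 in WT and 19.0 ± 10.3 in ACLY KO (mean and SD), 7.32 to 34.8 in the ACSS2 KO libraries and 64.4 to 125 in those of DKO1. With copies summed before the fit, this pair rose in DKO1 by a log2 fold change of 3.18 ± 0.45 against WT and 2.41 ± 0.45 against ACLY KO (adjusted p = 5.2e-05 and 0.0015), although neither gene alone was called. The H4 copies Hist1h4m and Hist1h4n, summed, stood at 47.8, 64.0 and 65.5 in DKO1 against 1.14 to 18.7 in WT (log2 fold change 3.46 ± 0.54, adjusted p = 0.00013). The H2A copies Hist1h2ao and Hist1h2ap, summed, stood at 118 to 227 in WT, 54.8 to 135 in ACLY KO and 56.5 to 346 in DKO1, and were called in none of the 5 comparisons. Hist2h2aa2 was listed at 0 in every library, and all 75-base windows of the shorter of the 2 transcripts were shared with Hist2h2aa1.

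The other 51 genes were too low to test. Of these, 6 (Hist1h2aa, Hist1h2al, Hist1h2an, Hist1h2ba, Hist2h2aa2 and Hist2h3c1) were at 0 in every library, and 32 stayed under 10 in every library. Together the 51 made up 6.74% of the WT sum and 3.08% of the DKO1 sum. Their summed values were 93.2 ± 29.7 for WT and 96.8 ± 12.1 for ACSS2 KO, against 119.5 ± 23.3 for ACLY KO and 238 ± 107 for DKO1. Of the 51, 33 had a higher mean in DKO1 than in WT and 12 a lower one, given here as a count with no test. Examples that reached 10 in a library are Hist1h3d (H3), at 10.3, 8.66 and 19.3 in DKO1 and at most 4.94 in the other genotypes, and Hist1h2ad (H2A), at 9.25, 6.73 and 12.5 in DKO1 and at most 2.23 elsewhere. Hist2h2bb (H2B), at 0, 4.80 and 10.3 in DKO1 and 0 to 17.2 in WT, was not higher in DKO1. The tested gene closest above the limit was Hist1h4m, with a mean over all libraries of 10.2, and those closest below it were Hist1h4n and Hist2h2bb, with 9.60 and 8.10.

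Genes that act with the clustered histones in S phase were mostly lower in ACLY KO and DKO1. Of 43 S phase genes (replication factors, nucleotide supply and their regulators), 0 were higher and 26 lower in ACLY KO than in WT, and 0 were higher and 35 lower in DKO1 than in WT, by limma. Of all genes tested, 24.7% were lower in ACLY KO and 28.1% in DKO1. In ACSS2 KO 2 of the 43 were higher and 7 lower, where 15.1% of all genes were higher and 10.99% lower. Examples are Mcm5 of the replicative helicase (9996 ± 225 in WT, 6404 ± 53.0 in ACLY KO and 5542 ± 380 in DKO1, mean and SD) and Rrm2, a subunit of ribonucleotide reductase (means of 10769, 7142 and 6146). Between DKO1 and ACLY KO 19 of the 43 were lower and 0 higher, where 13.6% of all genes were lower, among them Mcm4 and Uhrf1, with log2 fold changes of -0.61 and -0.79. Over the alternative settings the number lower ranged from 23 to 35 in ACLY KO against WT, from 33 to 41 in DKO1 against WT, and from 10 to 31 in DKO1 against ACLY KO. In RNA from a whole culture, fewer cells in S phase and less RNA per cell cannot be told apart, and the part of either in the histone values was not tested.

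Of 23 genes that activate histone transcription or process histone mRNA, 9 were lower in ACLY KO and 13 in DKO1 than in WT, with 0 and 2 higher, beside the same 24.7% and 28.1% lower over all genes. Slbp averaged 4668 for WT and 3707 for ACSS2 KO, against 3215 for ACLY KO and 3029 for DKO1. Its log2 fold changes against WT were -0.52 in ACLY KO and -0.63 in DKO1, with adjusted p of 0.0094 and 0.004. Npat, the activator of histone genes at S phase entry, was lower in DKO1 than in WT (log2 fold change -0.52, adjusted p = 0.021), as was its partner Casp8ap2 (-0.78, adjusted p = 0.00084). Neither was called in ACLY KO. Eri1, a nuclease that trims the ends of histone mRNAs, fell by 0.55 in ACLY KO and 0.77 in DKO1 on the log2 scale. Lsm11, a part of the U7 particle that cuts histone pre-mRNA at the stem-loop, rose in DKO1, with a log2 fold change of 0.59 against WT and 0.67 against ACLY KO (adjusted p = 0.00028 and 0.00033).

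Histone chaperones, which carry new histones to DNA, numbered 22, of which 10 were lower and 1 higher in ACLY KO, and 14 lower and 1 higher in DKO1, against WT, where 24.7% and 28.1% of all genes were lower. Asf1b stood at 2403, 1490 and 1688 and Chaf1a, of the CAF-1 complex, at 4498, 3095 and 2567 on average in WT, ACLY KO and DKO1. Rbbp7, which binds histones in several chromatin complexes, rose in DKO1, from 9095 in WT to 12471 (log2 fold change 0.46, adjusted p = 9.9e-05).

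Replication-independent histone genes usually give polyadenylated mRNA, and not only in S phase. Of these, 11 with symbols outside the Hist1h to Hist4h names were tested. In ACLY KO 1 was higher and 3 lower than in WT, where 23.8% of all genes were higher and 24.7% lower. In DKO1 3 were higher and 3 lower, where 27.9% were higher and 28.1% lower. H1f0, the linker histone of resting cells, rose from 5931 ± 604 in WT (mean and SD) to 9598 ± 306 in ACLY KO and 7638 ± 1173 in DKO1. H2afy2 and H1fx fell in both ACLY-deficient genotypes, by 2.14 and 2.64 on the log2 scale in ACLY KO and by 2.26 and 2.65 in DKO1. H3f3b, a gene of the replacement histone H3.3, was higher in DKO1 than in WT and ACLY KO (log2 fold changes 0.55 and 0.35) and was called in neither single knockout.

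The Hist1 genes were also set beside other genes of chromosome 13. Of 461 other genes tested on chromosome 13, 243 were lower and 69 higher in ACLY KO than in WT, where 24.7% of all genes were lower and 23.8% higher. Their median log2 fold change was -0.44, and in DKO1 the median was -0.17. Among the 27 other genes within 2 Mb of the Hist1 cluster, 13 were lower and 5 higher in ACLY KO, with a median of -0.35. The 14 tested Hist1 genes had a median of 0.56 in ACLY KO and 2.21 in DKO1. For the 7 other genes tested inside the cluster the ACLY KO median was 0.19, with 2 higher and 3 lower. Of these, Zfp184, Zfp322a and Abt1 fell by 0.85, 0.76 and 0.78 on the log2 scale in ACLY KO, Prss16 was higher (0.65, adjusted p = 0.006) and Hfe was not called. Slc17a1, a sodium-phosphate carrier gene, rose in ACLY KO and DKO1 against WT (2.41 and 2.65), and its neighbour Slc17a4 rose in DKO1 against WT (3.66) and ACLY KO (2.74). Between DKO1 and ACLY KO, 12 of the 27 neighbours were higher and 0 lower, where 14.3% of all genes were higher and 13.6% lower, with a median of 0.24, against 1.45 for the Hist1 genes. Of the 461 other genes of chromosome 13, 194 were higher and 47 lower in this comparison, with a median of 0.30. Of 74 other genes within 2 Mb of the Hist2 cluster on chromosome 3, 22 were higher and 13 lower in ACLY KO, beside 23.8% and 24.7% of all genes, with a median of 0.13. Copy number was not measured in these data, and its part in any of these values was not tested.

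**Figure D4:**
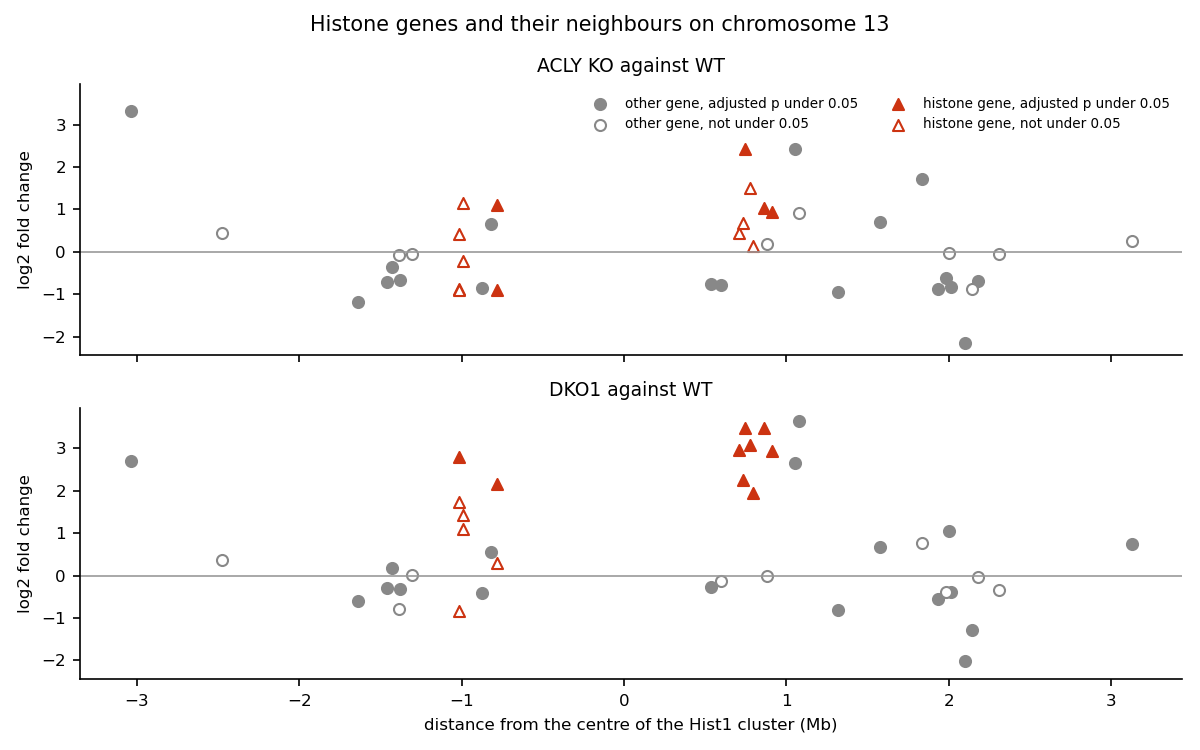
Log2 fold changes (y axis) of histone genes (triangles) and other tested genes (circles) by distance from the centre of the Hist1 cluster in Mb (x axis), in ACLY KO against WT and DKO1 against WT. Filled symbols have an adjusted p under 0.05, and in DKO1 the 7 histone genes to the right of the centre are all filled and above 0.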

How the data were processed

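The deposited table held 1 value per gene and library for 24972 gene symbols. Per the study's methods, the authors sequenced poly(A)-selected, strand-specific libraries with single-end reads of 75 bases, aligned them with STAR to GRCm38 and normalized gene counts with Illumina's DESeq2 application (version 1.0.1 in the submitters' processing notes). The deposited values are a count signal that is not whole, since the authors divided counts by normalization factors, so no count model was used. The counting rule and annotation are not given in the sources used here.

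Values were tested as log2(value + 1) with limma 3.58.1 (trend) in R 4.3.3 over all 14 libraries, for the 12711 genes with a mean of at least 10, and p-values were adjusted over all of them by the Benjamini-Hochberg method. The pseudocount of 1 understates the change of low genes. Transcript structure, positions and shared 75-base windows came from the GENCODE annotation of GRCm38, and promoters from RefSeq. In a simulation of DKO1 against WT with 200 changed genes, 72 of 100 genes changed 2-fold and 97 of 100 changed 4-fold were recovered, with 7 false calls. Other pseudocounts, filters, scalings, a correction for transcript length, a replicate block and leaving out libraries were tried. The genes named are the 18 tested members, untested members that reached 10 in a library, the other genes inside the Hist1 cluster, Slbp, Npat, Casp8ap2 and, per companion list, the 3 with the smallest adjusted p in ACLY KO against WT and in DKO1 against ACLY KO. Some genes that this rule names are not reported here. The members and lists were chosen with earlier results of these data known.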

Additional observations from a re-analysis of the deposited data

Results flagged for a closer look

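In groups of 4 libraries, 5 of 36 sets of values had 1 library far from the other 3, where chance gives about 5 in 100. Hist1h2ap was at 81.3 in WT replicate 1 and at 45.3 in ACLY KO replicate 3, with 0 in the other libraries of each group. Hist1h2bq was at 0 in WT replicate 1, the same library in which Hist1h2br was at 10.7 and not 0. These 4 cases are members of near-identical pairs. Hist1h2bg was at 32.5 in ACLY KO replicate 1 and at 6.78 to 10.3 in the other 3.

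The change that came with ACSS2 loss differed between ACLY KO and WT backgrounds in limma's interaction test for 5 genes. The difference on the log2 scale was 2.58 for Hist1h2bc, 2.00 for Hist1h1c, 1.95 for Hist2h2aa1 and 1.62 for Hist1h1e. For Hist2h2be it was -0.61. Each background is 1 line, so line and genotype cannot be told apart.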

How the results depend on the processing

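No histone fold change that was followed through the alternatives turned direction, but not every gene and comparison was followed. Summed copies could differ in direction from a single copy. In ACLY KO against WT the log2 fold change was -0.91 for Hist1h4m and 1.23 for its sum with Hist1h4n. In ACSS2 KO against WT it was 2.21 for Hist1h2ap and -0.43 for its sum with Hist1h2ao, and none of these was called. With a mean of at least 50, 6 histone genes were tested, and 5 were called in ACLY KO against WT, 5 in DKO1 against WT and 4 in DKO1 against ACLY KO, in place of 8, 13 and 10. Of all genes, 46.9%, 54.9% and 29.0% were called there, in the same order. With no filter, 63 histone genes were tested and 20 were called in DKO1 against WT, where 40.3% of all genes were called. At the stricter limit 1, 0, 5 and 3 were called in ACLY KO against WT, ACSS2 KO against WT, DKO1 against ACLY KO and the interaction. The shares over all genes at that limit were 8.80%, 2.42%, 2.06% and 4.61%. A pseudocount of 10 gave 8 calls in the interaction, in place of 5, and 28.4% of all genes were called with it. The single call in ACSS2 KO against WT became 0 with a pseudocount of 10, with no filter, with only the 2 groups compared and without the 4 short-transcript libraries, and 2 with quantile normalization and with the length correction without DKO1 replicate 4, a setting chosen after seeing the data, as was summing the copies. Of all genes in ACSS2 KO against WT, 26.3% were called with a pseudocount of 10 and 16.5% with no filter. Without the 4 short-transcript libraries 48.0% were called, and 24.2% with quantile normalization. The length correction moved the summed value of the 18 genes in ACSS2 KO from 1215 to 1309. The cause was not tested, other than the number of genes or samples that a setting itself changes.

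Leaving out 1 library at a time gave 5 to 9 calls in ACLY KO against WT (5 without ACLY KO replicate 4), 0 to 2 in ACSS2 KO against WT, 11 to 13 in DKO1 against WT, 8 to 11 in DKO1 against ACLY KO and 4 to 6 in the interaction. The share called over all genes moved too. With 1 WT library left out it was 44.7% to 47.8%, 22.5% to 24.2%, 50.5% to 57.9%, 26.2% to 29.9% and 24.3% to 25.3%, in the same order. The shares with a library of another genotype left out are not given here. The summed values ranged over 1259 to 1323 for WT, 2772 to 2941 for ACLY KO, 1179 to 1252 for ACSS2 KO and 5802 to 8607 for DKO1.

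Libraries with the same replicate number did not deviate together (18 correlations between -0.43 and 0.45), which gives no sign of pairing by number. The deviations also followed transcript length, with a correlation of 0.62 between WT replicate 2 and DKO1 replicate 4. A weaker pairing could be hidden by this trend. A fit with the replicate number as a block called 7, 0, 12, 8 and 4 histone genes in ACLY KO, ACSS2 KO and DKO1 against WT, DKO1 against ACLY KO and the interaction. Of all genes, that fit called 47.0%, 23.0%, 53.4%, 24.6% and 24.8%, in the same order. Genes under about 10 normalized counts cannot show modest changes at this depth.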
